A study of Mus musculus with 8 samples.

Results

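The genes described here are Dppa2, Dppa3, Dppa4, Dppa5a, Tdh, Tcl1, L1td1 and Mybl2, which were picked by symbol, 8 of 58420 gene rows. All were found in the table of FPKM values (fragments per kilobase of exon, scaled to a total per library), and all passed the filter of a mean of at least 1 FPKM over the 8 libraries. The samples were RNA of mouse embryonic stem cells, the pluripotent cells of the early embryo kept in culture, from a study of linc1393, a long intergenic non-coding RNA. Control cells were wild type and untreated. The other 3 groups were cells given reagents named sh-linc1393, sd-linc1393 or dd-linc1393 (here sh, sd and dd), and the labels enter the same words under genotype. Each group had 2 libraries, numbered replicate 1 and replicate 2. What sd and dd stand for, the cell line and the culture medium are not given, and no row of the table was tied to linc1393, so the reagents were not checked on their target here. Whether the 2 libraries of a group were grown separately is not stated, and the p-values below therefore cover the spread between libraries, which could be technical.

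Most of these genes are known as markers of the naive mouse stem cell and, for several, of the oocyte and the cleaving embryo. Dppa2 and Dppa4 are neighbouring genes whose proteins share a SAP DNA-binding domain, work as a pair on chromatin and are known to activate genes of the early cleavage embryo. Dppa3 (Stella) is a maternal protein that limits DNA methylation through Uhrf1, and Dppa5a is a small RNA-binding protein with a KH domain, of the same family as the maternal factor Ooep. Tdh is the mitochondrial threonine dehydrogenase that feeds glycine and acetyl-CoA to mouse stem cells, Tcl1 is a cofactor of the kinase Akt, L1td1 is an RNA-binding protein derived from a retrotransposon, and Mybl2 (B-Myb) is the transcription factor that acts with the MuvB complex on genes of the G2 and M phases.

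The depth, in gene-assigned reads worked out from the step size of the FPKM values, ranged from 3658368 in control replicate 2 to 20387065 in dd replicate 2, and control replicate 1 held 6415130. The libraries stood apart by replicate number: the number of genes with a value above 0 was 16152 to 19745 in replicate 1 libraries and 32639 to 46560 in replicate 2 libraries, where dd was lowest. The FPKM of all genes summed to 540017 to 632749 in replicate 1 and to 888554 to 1079205 in replicate 2. Of 8 markers of embryonic stem cells, including Pou5f1, Sox2 and Nanog, all passed the filter, and their summed level was 1049 to 1729 FPKM. Within that sum Pou5f1 was at 83.1 FPKM in control and 17.8 to 24.2 FPKM in treated libraries of replicate 1, and at 251 FPKM in control and 14.7, 130 and 53.1 FPKM in sh, sd and dd of replicate 2. Sox2 was at 19.7 FPKM in sh replicate 2 against 177 to 371 elsewhere, and Zfp42 and Tdgf1 were above the control of their number in all 6 treated libraries. Fibroblast feeder markers summed to 0.711 to 5.94 FPKM with 0 of 8 above the filter (Col1a2, Col3a1, Lum, Dcn, Postn and Fbn1 under 1 FPKM in every library), and oocyte markers to 1.50 to 9.52 FPKM with 1 of 8 above it (Zp3). Primitive endoderm markers summed to 25.3 to 37.3 FPKM in replicate 1 and 1.70 to 10.2 FPKM in replicate 2 (7 of 7 above the filter), and trophoblast markers to 10.1 to 13.4 and 21.6 to 32.3 FPKM (4 of 7). Both sums move with the replicate number, and their part in the values below was not tested. In such bulk samples, fewer cells of a type and less RNA per cell cannot be told apart.

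Of these genes 6 have processed pseudogenes, intronless copies elsewhere in the genome, that are close to identical with the coding sequence, and the copies carry values of their own in the table. Of the 31-base stretches of each gene's transcripts, 57.2% occurred in another gene for Dppa5a, 40.1% for Dppa4, 33.8% for Dppa2, 29.6% for Dppa3, 21.1% for Mybl2 and 17.1% for Tdh. The shares were 6.92% for L1td1 and 0% for Tcl1. The sources used here do not give how reads that fit several places were counted. Levels of the first 6 genes and of their copies are therefore uncertain against each other. The stretches below show how little separates gene from copy. They come from the GENCODE M21 transcripts (GRCm38, the assembly that mm10 names), read 5′ to 3′ along the coding strand of the gene, and positions count from 1 at the A of the start codon. Capitals mark the bases at which a copy differs from the gene. Dppa5a is shown with the copies that held the most signal, Gm6083 (chromosome 5, 29538153 to 29538509, plus strand) and Gm6798 (chromosome X, 8654465 to 8654824, plus strand), over coding bases 1 to 60.
Dppa5a: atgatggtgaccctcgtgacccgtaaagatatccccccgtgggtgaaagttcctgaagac
Gm6083: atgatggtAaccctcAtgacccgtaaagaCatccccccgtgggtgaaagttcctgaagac
Gm6798: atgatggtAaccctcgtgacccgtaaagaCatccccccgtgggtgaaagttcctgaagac
Gm6083 carries G9A, G16A and T30C in this stretch and Gm6798 carries G9A and T30C. Over the 357 coding bases the identity was 96.9% for Gm6083 and 96.6% for Gm6798. Dppa2 and Dppa4 each have a copy that is closer still, shown over coding bases 1 to 60.
Dppa2: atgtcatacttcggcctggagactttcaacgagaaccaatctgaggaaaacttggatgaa
Gm9788: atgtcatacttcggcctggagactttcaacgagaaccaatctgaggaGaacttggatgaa
Dppa4: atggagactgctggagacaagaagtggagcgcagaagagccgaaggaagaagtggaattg
Gm14058: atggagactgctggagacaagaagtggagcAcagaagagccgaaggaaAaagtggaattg
Gm9788 (chromosome 19, 41459813 to 41460718, plus strand) differs here by A48G, and it is 99.3% identical to Dppa2 over 906 coding bases. Gm14058 (chromosome 2, 122214620 to 122215354, minus strand) differs by G31A and G49A, and it is 98.9% identical to Dppa4 over 735 aligned coding bases. For Mybl2 the copy Gm3320 (chromosome 17, 16669156 to 16670186, minus strand) covers 742 of 2115 coding bases with 2 differences, of which G1398C lies in the stretch from base 1374 to 1433.
Mybl2: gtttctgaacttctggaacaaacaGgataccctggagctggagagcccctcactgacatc
Gm3320: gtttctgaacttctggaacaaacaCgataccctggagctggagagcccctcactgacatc
Dppa3 has the copy Dppa3-ps on chromosome X (98.2% identity over 451 coding bases) and Tdh has Gm13929 on chromosome 2 (97.5% over 1120 coding bases).

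Dppa2 and Dppa4, the chromatin pair, lie side by side on the plus strand of chromosome 16, and the ratio of their levels differed between the replicate numbers. Dppa2 (ENSMUSG00000072419, 48303908 to 48319723) was at 73.8 and 9.61 FPKM in control replicates 1 and 2, 64.9 and 9.86 in sh, 101 and 12.6 in sd, and 67.8 and 13.0 in dd. Every replicate 1 library was thus above every replicate 2 library, and the treated libraries were at 0.880 to 1.37 of the control library of their number. Dppa4 (ENSMUSG00000058550, 48283733 to 48294237) was at 26.3 and 24.2 FPKM in control, 27.3 and 30.6 in sh, 43.1 and 34.4 in sd, and 53.7 and 33.1 in dd. All 6 treated libraries were above both control libraries for Dppa4, while the replicate numbers overlapped. Group means ran in the order control (25.2 FPKM, SD 1.47, n = 2), sh (29.0 FPKM, SD 2.33, n = 2), sd (38.8 FPKM, SD 6.15, n = 2) and dd (43.4 FPKM, SD 14.5, n = 2), and the sd and dd libraries overlapped. The FPKM ratio of Dppa2 to Dppa4 was 2.81, 2.38, 2.34 and 1.26 in replicate 1 of control, sh, sd and dd, and 0.397, 0.322, 0.365 and 0.393 in replicate 2.

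Dppa3 (ENSMUSG00000046323, chromosome 6, 122626410 to 122630272, plus strand), the maternal methylation regulator, was the lowest of the 8 genes, and its values rest on few reads. It had 0 reads in control replicate 1, which allows up to 0.524 FPKM at 3 reads, and 18 reads (5.52 FPKM) in control replicate 2. The sh libraries held 9 and 17 reads (0.734 and 1.36 FPKM), the sd libraries 2 and 118 reads (0.110 and 8.61 FPKM), and the dd libraries 23 and 181 reads (1.35 and 9.95 FPKM). All 4 replicate 2 libraries were above all replicate 1 libraries, with sh replicate 2 just above dd replicate 1. Set against control replicate 2, the ratio of FPKM was 0.247 in sh replicate 2 (exact 95% interval 0.120 to 0.509, counting error only), 1.56 in sd (0.946 to 2.72) and 1.80 in dd (1.11 to 3.11). Its copy Dppa3-ps was listed at 0 in 3 replicate 1 libraries and at 1.04 FPKM in dd, and at 3.03, 1.43, 10.4 and 8.59 FPKM in replicate 2 of control, sh, sd and dd, next to the level of Dppa3 in the last 3 of these.

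Dppa5a (ENSMUSG00000060461, chromosome 9, 78367052 to 78368177, minus strand), the small KH-domain protein, was the most abundant of the 8 genes in every library. Its level was 292 and 7286 FPKM in control, 373 and 5866 in sh, 464 and 8584 in sd, and 557 and 7616 in dd. In replicate 2 it ranked 6 to 18 among the 14561 genes that passed the filter, and in replicate 1 it ranked 134 to 224. Gm6083 was as high as the gene itself, with 284 to 605 FPKM in replicate 1 and 4260 to 8745 FPKM in replicate 2, and Gm6798 held 31.2 to 94.5 and 2405 to 4508 FPKM. The ratio of Gm6083 to Dppa5a was 0.585 to 1.15 over the 8 libraries.

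Tdh, the threonine dehydrogenase (ENSMUSG00000021953, chromosome 14, 63492347 to 63509092, minus strand), had the second smallest difference between the replicate numbers on the FPKM as deposited, after Dppa4. With median ratio scaling or quantile normalization Tcl1 and Mybl2 differed less than Tdh. It was at 52.5 and 45.2 FPKM in control, 74.6 and 34.1 in sh, 86.5 and 64.9 in sd, and 71.0 and 55.1 in dd. Both sd and both dd libraries were above both control libraries, and the sh libraries lay on either side of them. Gm17232 overlaps its exons on the other strand and reached at most 1.21 FPKM. Tcl1, the Akt cofactor (ENSMUSG00000041359, chromosome 12, 105216750 to 105222793, minus strand), was at 11.7 and 43.9 FPKM in control, 14.2 and 49.3 in sh, 19.8 and 47.0 in sd, and 17.3 and 37.1 in dd. Its replicate numbers did not overlap, and no stretch of its transcripts was shared with another gene.

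L1td1, the retrotransposon-derived RNA-binding protein (ENSMUSG00000087166, chromosome 4, 98726734 to 98738480, plus strand), was at 134 and 42.7 FPKM in control, 158 and 87.9 in sh, 167 and 78.9 in sd, and 198 and 80.2 in dd. Replicate 1 libraries were above replicate 2 libraries, and within each number control was the lowest of the 4. Mybl2 (ENSMUSG00000017861, chromosome 2, 163054687 to 163084688, plus strand), the cell-cycle transcription factor, was at 6.06 and 38.1 FPKM in control, 9.54 and 51.2 in sh, 10.2 and 30.9 in sd, and 10.9 and 15.9 in dd. Control was thus the lowest library of replicate 1 and the second highest of replicate 2, where dd was lowest. The copy Gm3320 stayed at 0.071 to 1.27 FPKM in replicate 1 and was at 77.9, 143, 94.3 and 10.6 FPKM in replicate 2 of control, sh, sd and dd, so in replicate 2 gene and copy were both highest in sh and lowest in dd. Whether reads of the copy entered the level of Mybl2 was not tested.

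**Figure D1:**
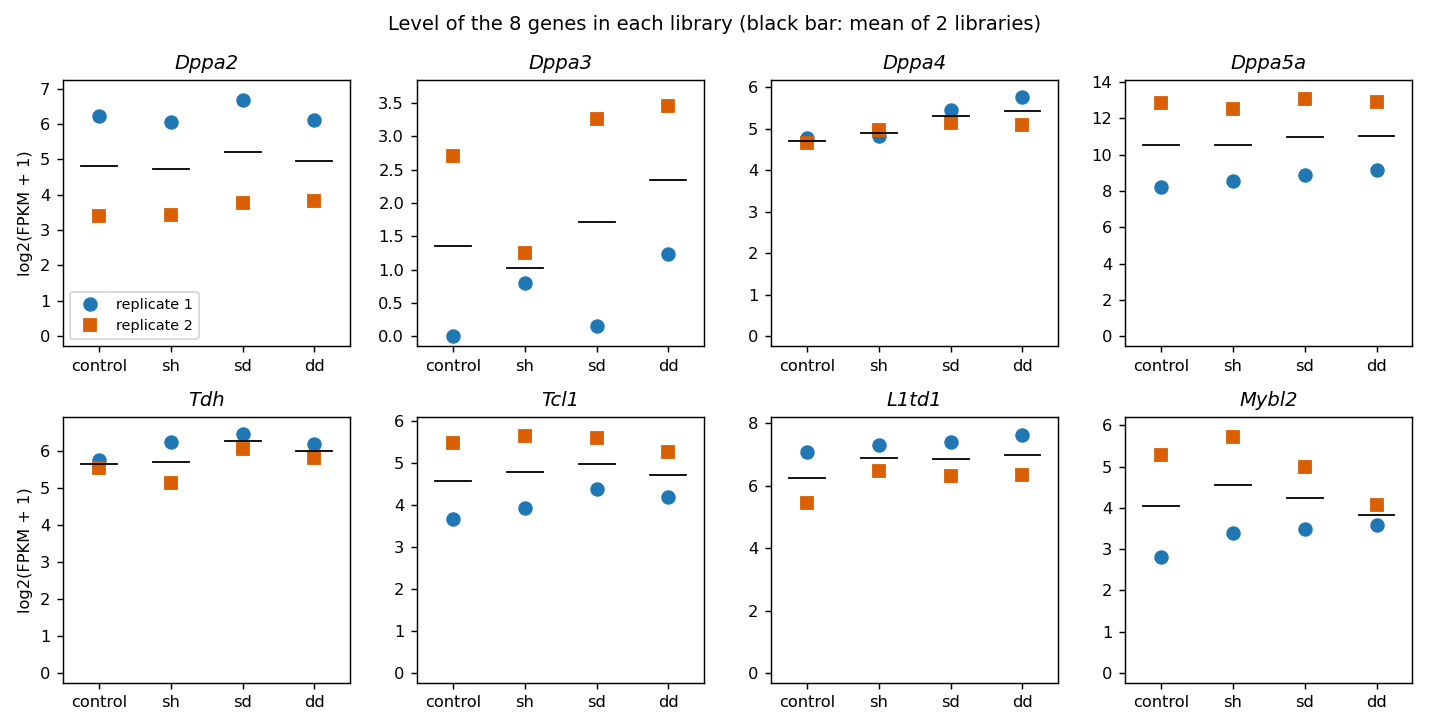
Level of each gene in each of the 8 libraries, as log2(FPKM + 1), by group (control, sh, sd, dd); circles are replicate 1, squares are replicate 2 and the bar is the mean of the 2 libraries. The symbols part by replicate number for all genes except Dppa4 and Tdh, and Dppa5a in replicate 2 is at 5866 to 8584 FPKM.

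The first comparison asked whether the 8 genes differed from control in cells given each linc1393 reagent. None was called: limma on log2(FPKM + 1), with all 4 groups fitted together and Benjamini-Hochberg adjustment over 14561 genes, gave adjusted p = 1 for each of the 8 genes in sh, in sd and in dd. The background was also empty, with 0 of 14561 genes (0%) called in each contrast. Unadjusted p-values under 0.05 were found for 32 genes in sh, 50 in sd and 83 in dd, and the F test over the 3 treatments called 0 genes, with 22 at that level. This fit counts the gap between the replicate numbers as spread within a group, which widens its standard errors. Its 0 calls therefore do not show that levels were unchanged. Adding the replicate number as a block narrowed the standard errors but called 0 genes (0%), with 480, 945 and 1310 genes under 0.05 before adjustment, and voom on recovered reads called 0 as well. Voom with the block called 0 genes in sh, 4 in sd (0.0275%) and 11 in dd (0.0756%), all lower than control, and 13 in the F test (0.0894%), and 0 of the 8 genes were among them.

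For Dppa4 the difference from control on the log2(FPKM + 1) scale was 0.19 in sh, 0.59 in sd and 0.72 in dd (SE 0.58 each, or 0.34 with the block). For L1td1 it was 0.63, 0.59 and 0.73 (SE 0.91, or 0.32 with the block), and its unadjusted p with the block in dd, 0.0475, became an adjusted p of 0.553. Tdh differed by 0.05, 0.61 and 0.36 (SE 0.66) and Tcl1 by 0.21, 0.41 and 0.15 (SE 0.98). For the genes called between the replicate numbers the standard errors without the block were wider than the differences. Dppa5a differed by 0.02, 0.45 and 0.50 (SE 2.41), Dppa2 by -0.07, 0.40 and 0.14 (SE 1.57), Dppa3 by -0.33, 0.36 and 0.99 (SE 1.38) and Mybl2 by 0.50, 0.19 and -0.23 (SE 1.15). The signs for Dppa3, Dppa5a and Tdh in sh turned under another pseudocount or scaling. With the block, adjusted p was 0.999 for each gene in sh, 0.723 to 0.940 in sd and 0.553 to 0.889 in dd.

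Within each replicate number, the treated library can be set beside the control library that shares the number. The 3 comparisons share their 2 control libraries, so they are not independent of each other. In sd, 7 of the 8 genes were above control in both numbers (Mybl2 was the exception), against 37.5% of the 14561 genes. In dd there were 5 such genes (Dppa3, Dppa4, Dppa5a, Tdh and L1td1), against 31% of genes, and in sh there were 4 (Dppa4, Tcl1, L1td1 and Mybl2), against 35.2%. The median difference over the 8 genes was 0.66 in sd replicate 1, where the median of all genes was 0.31, and 0.42 in sd replicate 2, where it was 0.03. In dd the medians were 0.66 against 0.28 in replicate 1 and 0.34 against -0.13 in replicate 2, and in sh they were 0.31 against 0.10 and 0.10 against 0.20. These counts and medians describe the libraries, since the genes were chosen with results of these data known.

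Dppa4 and L1td1 were above the control of the same number in all 6 treated libraries, as were 15% of all genes. The ratio for Dppa4 was 1.04 and 1.27 in replicates 1 and 2 of sh, 1.64 and 1.42 in sd and 2.04 and 1.37 in dd. The exact 95% counting interval reached 1 or below for the first of these alone (0.902 to 1.20). For L1td1 the ratio was 1.18 and 2.06 in sh, 1.25 and 1.85 in sd and 1.48 and 1.88 in dd, so each treatment stood further from control in replicate 2. The 3 values in replicate 2 share control replicate 2, the shallowest library. Without regard to number, both treated libraries exceeded both control libraries for Dppa4 in sh (8.4% of all genes did so), for Dppa4 and Tdh in sd (11.1%) and for Dppa4 and Tdh in dd (11.2%). The reverse order was held by 0 of the 8 genes and by 2.13%, 2.69% and 4.72% of all genes. Neither order is possible for a gene whose replicate numbers do not overlap, as for 56.1% of all genes. Of the 8 genes only Dppa4 and Tdh could show either, so these counts reflect the gap between the numbers as well.

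Mybl2 went opposite ways in the 2 numbers. Its ratio to control in dd was 1.80 in replicate 1 (exact 95% counting interval 1.54 to 2.12) and 0.416 in replicate 2 (0.379 to 0.457), and in sd it was 1.68 and 0.811. In sh both ratios were above 1, at 1.57 and 1.34. Tdh and Dppa5a parted in sh, with ratios of 1.42 and 0.756 for Tdh and 1.28 and 0.805 for Dppa5a. Tcl1 was above control by 1.48 in dd replicate 1 and below it, at 0.847, in dd replicate 2. Dppa2 was below control at 0.880 in sh replicate 1 and 0.918 in dd replicate 1, and above it at 1.03 and 1.36 in replicate 2. With 1 treated and 1 control library per number, these splits have no test of their own.

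**Figure D2:**
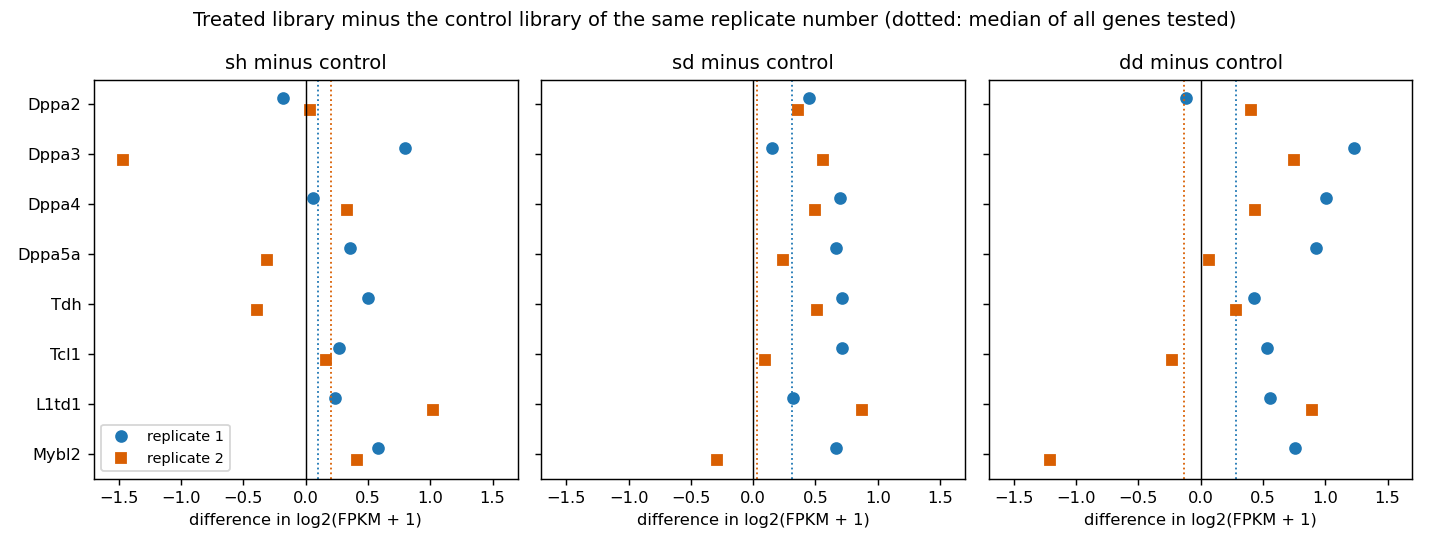
Difference in log2(FPKM + 1) between each treated library and the control library of the same replicate number, for the 8 genes (rows) in sh, sd and dd (panels); circles are replicate 1, squares replicate 2, and dotted lines the median of all 14561 genes. Dppa4 and L1td1 lie right of 0 in all 3 panels, and Mybl2 in dd lies at 0.76 in replicate 1 and -1.21 in replicate 2.

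The larger contrast among these 8 genes was between the replicate numbers, which is a difference between sets of libraries and not a treatment. What the libraries of a number share is not stated. In a fit of group and replicate number over the 8 libraries, 8920 of 14561 genes (61.3%) were called, 46.6% higher and 14.6% lower in replicate 2. Of the 8 genes, 6 were called. Dppa3, Dppa5a, Tcl1 and Mybl2 were higher in replicate 2, and Dppa2 and L1td1 were lower. The count is close to the background share, and it says nothing particular about these genes. Under other scalings the split of calls over all genes shifted from 6787 higher and 2133 lower to 4988 and 3623 with median ratio scaling and to 4015 and 4341 with quantile normalization. The median of all genes moved with it, from 0.73 to 0.24 and 0.02.

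Dppa5a had the widest gap. Its mean was 421 FPKM in replicate 1 (SD 114, n = 4) and 7338 FPKM in replicate 2 (SD 1126, n = 4), a ratio of 17.4, with a log2 difference of 4.15 (SE 0.19, limma adjusted p = 1.83e-06). Dppa2 went the other way, from 76.9 FPKM (SD 16.5, n = 4) to 11.3 FPKM (SD 1.79, n = 4), a log2 difference of -2.66 (SE 0.23, limma adjusted p = 2.48e-05). Dppa3 differed by 2.12 (SE 0.43, adjusted p = 0.00267), Mybl2 by 1.70 (SE 0.34, adjusted p = 0.00260) and Tcl1 by 1.45 (SE 0.25, adjusted p = 0.00100), each higher in replicate 2. The mean of Dppa3 was 0.548 FPKM in replicate 1 and 6.36 FPKM in replicate 2. It thus passed the filter of 1 FPKM through its replicate 2 libraries, and its call is not independent of that filter. L1td1 differed by -1.21 (SE 0.22, adjusted p = 0.00161). Dppa4 differed by -0.24 (SE 0.24, adjusted p = 0.412) and Tdh by -0.52 (SE 0.24, adjusted p = 0.0866), and neither was called.

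The direction of all 8 differences held under median ratio scaling and quantile normalization. With quantile normalization Dppa5a was at 3.46, Dppa3 at 1.32, Mybl2 at 1.19, Tcl1 at 0.91, Dppa4 at -0.84, Tdh at -1.27, L1td1 at -2.19 and Dppa2 at -3.40. Dppa4 and Tdh were then called as lower in replicate 2 (adjusted p = 0.0118 and 0.00352), as they were with median ratio scaling. Voom on recovered reads called Tdh as well (-0.55, adjusted p = 0.0420) but not Dppa4 (-0.30, adjusted p = 0.310), so whether these 2 genes pass turns on the processing. Libraries did not overlap between the numbers for 6 of the 8 genes, as for 56.1% of all genes, and the same 6 genes were those called. For Dppa3 among them the nearest libraries were at 1.35 FPKM in replicate 1 and 1.36 FPKM in replicate 2.

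**Figure D3:**
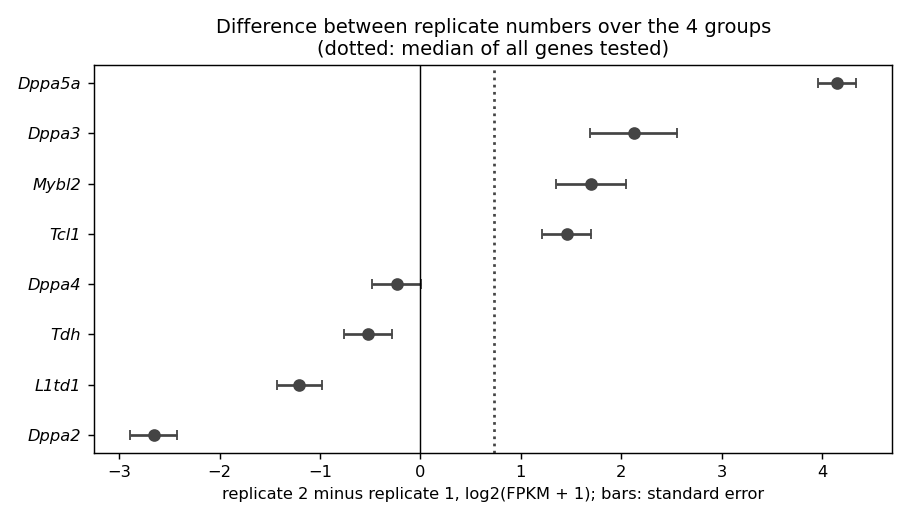
Difference between replicate 2 and replicate 1 over the 4 groups for each gene, in log2(FPKM + 1), with its standard error from the fit; the dotted line is the median of all genes tested, 0.73. Dppa5a lies at 4.15 and Dppa2 at -2.66, with Dppa4 and Tdh between 0 and -0.53.

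The pseudogene copies also differed between the numbers. Of 14 copies that share at least 10% of the 31-base stretches of one of these genes, 12 had all replicate 2 libraries above all replicate 1 libraries, an order held by 41.9% of all genes tested. The copies were singled out after their values were seen. Unlike those genes, the copies were not held to the filter of 1 FPKM, so the 2 shares are not alike. Many of the copies are of Dppa5a, which was itself higher in replicate 2, and they are not independent of each other. Gm9788 was at 0.016 to 0.060 of the level of Dppa2 in replicate 1 and at 0.785, 0.898, 0.754 and 0.324 of it in replicate 2 of control, sh, sd and dd. Its own level was 1.20 to 4.03 FPKM in replicate 1 and 4.22 to 9.48 FPKM in replicate 2, while Dppa2 itself was lower in replicate 2. Gm14058 was at 0.004 to 0.037 of Dppa4 in replicate 1 and at 0.276 to 0.719 in replicate 2, and Gm13929 was at 0.003 to 0.048 of Tdh and then at 0.283 to 0.946. In each of these pairs, and in Mybl2 with Gm3320, dd replicate 2 had the lowest ratio of the 4 replicate 2 libraries. Gm6083 instead had its highest ratio to Dppa5a there, at 1.15. Gm6798 and Dppa3-ps had their lowest ratio in control replicate 2, at 0.360 and 0.549. The remaining copies were lowest in dd replicate 2 as well. The dd replicate 2 library also had the fewest genes above 0 among the 4, and the part of this in the ratios was not tested.

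**Figure D4:**
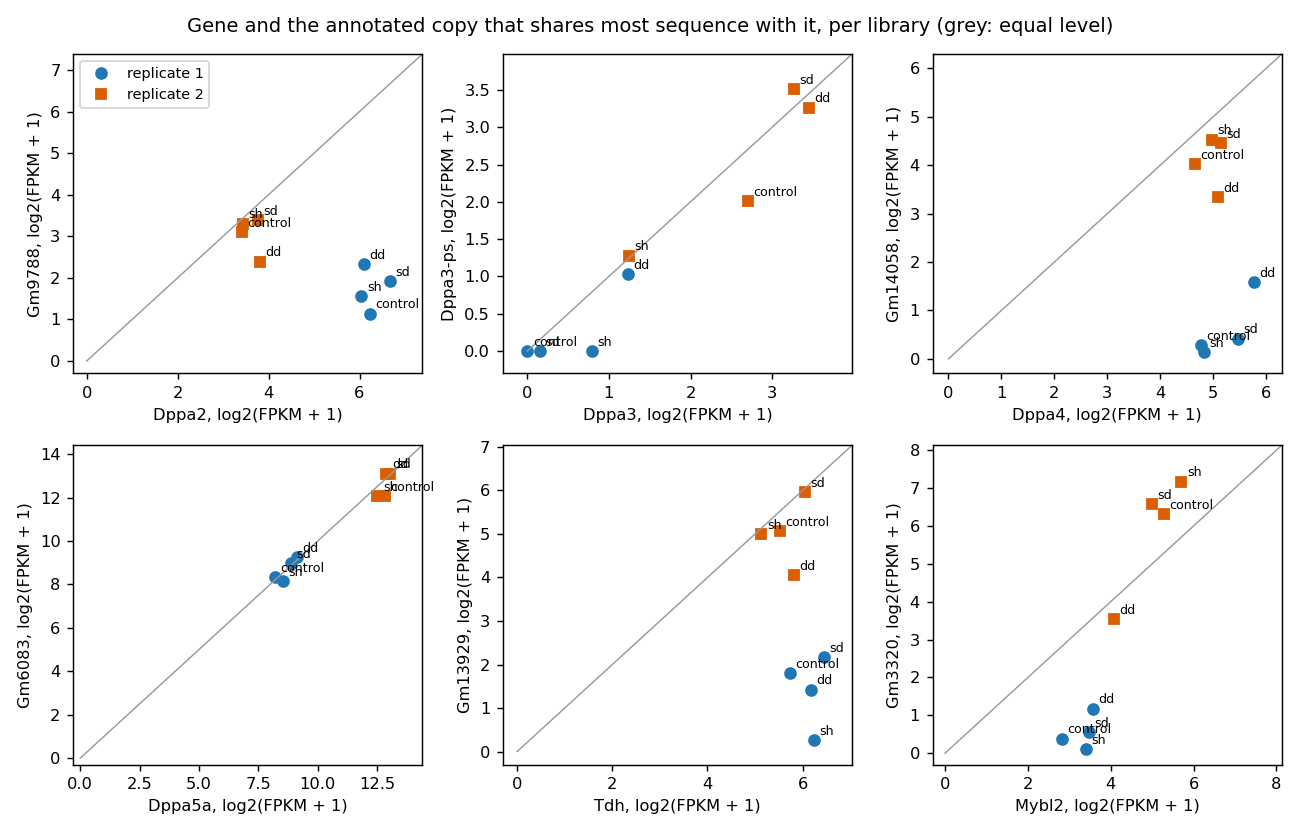
Level of a gene (horizontal) and of the annotated copy that shares most sequence with it (vertical), both as log2(FPKM + 1), in each library; circles are replicate 1, squares replicate 2, and the grey line marks equal levels. Gm6083 follows the line with Dppa5a, while Gm9788, Gm14058, Gm13929 and Gm3320 lie near the bottom in replicate 1 and closer to the line, or above it, in replicate 2.

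Genes that act with the 8, taken from lists chosen with earlier results of these data known, also gave 0 calls against control in every list and contrast, with and without the block. Of the genes of the early cleavage embryo that Dppa2 and Dppa4 are known to activate, 5 of 10 passed the filter, and 0 of 5 were called. Zscan4c was at 5.82 and 2.40 FPKM in control, 10.4 and 5.41 in sh, 16.8 and 8.86 in sd, and 11.4 and 7.74 in dd, above control in each number. Zscan4f had the same order in each number, with 5.33 and 2.79 FPKM in control and 12.1 and 7.91 FPKM in sd. Zscan4d was below control in sh replicate 1 (5.32 against 9.74 FPKM). Duxf3, of the Dux family that acts upstream of the Zscan4 genes, was named after its values were seen and went the other way in replicate 2. It was at 12.8 FPKM in control replicate 2 and at 4.38, 3.69 and 0.455 FPKM in replicate 2 of sh, sd and dd. In replicate 1 it was at most 0.058 FPKM, so it passed the filter through replicate 2 alone. Tle6 and Npm2, oocyte and maternal genes at most 0.270 FPKM in replicate 1, ran in the same order in replicate 2. Npm2 was at 2.37, 0.760, 0.503 and 0.0947 FPKM there, while Nlrp14 of the same list did not keep that order. What Duxf3 shares with such genes was not tested. The median difference of the 5 early cleavage genes tested was 0.08 in sh, 0.73 in sd and 0.44 in dd, beside 0.15, 0.17 and 0.06 over all genes. Most of the 5 are Zscan4 genes, and the medians in sd and dd are the values of Zscan4d. Tcstv3, the remaining gene tested, differed by 0.08 in sh, 0.04 in sd and 0.15 in dd, so the medians do not describe the whole set. The Zscan4 genes are near-identical copies of each other, so their split is uncertain.

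Of 18 oocyte and maternal genes, 4 passed the filter and 0 were called against control. Ooep, which encodes a maternal KH-domain protein related to Dppa5a, was at 5.69 to 13.1 FPKM in replicate 1 and 136 to 158 FPKM in replicate 2. Khdc3, of the same family, went the other way between the numbers, with 3.50 to 11.4 and 2.01 to 3.20 FPKM. Beside Dppa3 on chromosome 6, Nanog was at 215 to 335 FPKM in all libraries and was not called between the numbers (log2 difference -0.11, limma adjusted p = 0.64). Slc2a3, a glucose transporter gene, was at 30.9 to 52.3 FPKM in replicate 1 and 104 to 242 in replicate 2. Among the DNA methylation genes, 5 of 7 tested were called as lower in replicate 2 and 0 as higher, beside 14.6% and 46.6% of all genes. Tet2, a 5-methylcytosine oxidase, was at 116 to 200 FPKM in replicate 1 and 0.820 to 2.02 in replicate 2, while Uhrf1, the partner of Dnmt1 that Dppa3 acts on, was at 23.4 to 31.4 and 18.2 to 32.9 FPKM.

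Around Tdh, 12 genes of threonine, glycine and one-carbon metabolism were tested. Differences from control were positive for 10 in sh, 11 in sd and 9 in dd, with 0 calls. Their medians were 0.24, 0.51 and 0.34, beside 0.15, 0.17 and 0.06 over all genes. Of all genes tested, 56.7% and 64.1% were above control in replicates 1 and 2 of sh, 68.7% and 52.1% in sd, and 67.4% and 43.9% in dd. These shares are taken within each number, which is not the same measure as the counts of positive differences. Amt, of the glycine cleavage system, was at 149 to 238 FPKM in replicate 1 and 11.1 to 15.2 in replicate 2, and Gcsh, another part of that system, at 56.3 to 75.7 and 81.2 to 129 FPKM. The 5 relatives of Tcl1 (Tcl1b1 to Tcl1b5) and Mtcp1 did not pass the filter, and each was at most 2.89 FPKM. Of 9 genes of the Tcl1 and Akt list that passed, 5 were called as lower and 1 as higher in replicate 2, beside the same 14.6% and 46.6%, and Foxo3, a transcription factor that Akt restrains, was at 96.6 to 186 and 2.34 to 4.58 FPKM. Lin28a, the RNA-binding partner of L1td1, was low throughout at 1.64 to 5.96 FPKM. Of the 8 RNA-binding proteins tested, 8 differences were positive in sh, 6 in sd and 1 in dd, with 0 calls. The medians of these differences were 0.22, 0.19 and -0.11, beside the same medians over all genes.

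Partners and targets of Mybl2 gave 0 calls against control as well. Of 12 Myb relatives, MuvB subunits and E2F genes tested, the differences were positive for 9 in sh, 9 in sd and 5 in dd. The medians of these differences were 0.18, 0.15 and -0.087, beside 0.15, 0.17 and 0.06 over all genes. Mybl1, the close relative of Mybl2, was at 76.1 to 204 FPKM in replicate 1 and 1.20 to 2.66 in replicate 2, against the direction of Mybl2. The G2 and M phase genes that Mybl2 with MuvB is known to bind were all tested: 13 of 14 differences were positive in sh, 14 in sd and 11 in dd. Their medians were 0.41, 0.43 and 0.50, beside 0.15, 0.17 and 0.06 over all genes. As for the genes around Tdh, such counts are to be read beside the shares of all genes above control. Ccnb2 (cyclin B2) was at 46.7 and 58.2 FPKM in control, 50.5 and 94.8 in sh, 55.6 and 99.0 in sd, and 56.5 and 99.4 in dd. Plk1, Cdc20 and Kif20a, mitotic regulators named after their values were seen, were lowest in dd among the replicate 2 libraries, as Mybl2 was. They were at 9.88, 16.8 and 0.667 FPKM there, against 14.0, 28.5 and 3.21 FPKM in control replicate 2. Ccnb1, Ccnb2, Birc5, Ccna2, Cdk1, Nusap1 and Bub1 of the same list were instead highest in dd replicate 2. Ccnb1 was at 53.0 FPKM in that library, against 27.4 FPKM in control replicate 2. The remaining genes of the list were highest in sh replicate 2.

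The genes whose levels ran most like each of the 8 over the libraries, by Pearson r of log2(FPKM + 1) over 8 libraries and 4942 or 4943 protein-coding genes with a mean of at least 5 FPKM, are given as a description without a test, since the 8 libraries fall in 2 sets by replicate number. Dppa5a ran with Rpl14 (r = 0.997) and Gm2000 (0.996), Tcl1 with Copz1 (0.998) and Akr1a1 (0.997), and Mybl2 with Psmd13 (0.992) and Pmf1 (0.992), all higher in replicate 2. Dppa2 ran with Tnfaip6 (0.996) and Ankrd45 (0.994), and L1td1 with Pnp (0.992) and Gspt1 (0.987), all lower there. For Dppa3 the nearest were Snrpc (0.956) and Pop5 (0.950). Dppa4 ran with 3110001I22Rik (0.955), which was at 4.02 and 2.40 FPKM in control, 3.84 and 3.65 in sh, 12.3 and 5.42 in sd, and 12.7 and 5.21 in dd. Tdh ran with Rnf7 (0.949) and Timm10 (0.926).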

How the data were processed

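RNA abundance was deposited by the authors as FPKM per gene, per the file headers, for 8 libraries of mouse embryonic stem cells. CASAVA 1.4, HISAT2 and the mm10 build are listed in the submitters' processing notes. The FPKM formula, counter, annotation and strand setting were "not given in the sources used here". Symbols, positions and sequences come from GENCODE M21 by Ensembl identifier (52081 of 52338 rows with values matched). Reads were recovered from FPKM times exon length, and 98.3% to 98.9% of values under 100 reads per library came out whole within 0.02. Intervals and floors of 3 reads describe counting error alone, because without molecular identifiers 1 molecule can give several reads.

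Differences were tested with limma 3.58.1 (R 4.3.3) on log2(FPKM + 1), which understates changes of low genes. It used genes with a mean of at least 1 FPKM (14561), all 4 groups in 1 fit with a mean-variance trend and no block, two-sided p-values, and Benjamini-Hochberg adjustment at 0.05. The fit was also run on simulated data, drawn with independent normal errors around the means of a fit of group plus number. That run checks the code and not how well the fit suits FPKM values. The replicate contrast came from a fit of group plus number. Deviations of libraries with the same number correlated at 0.750 to 0.893, so the numbers were taken to pair the libraries and a fit with the number as a block was set beside the main one. Alternatives were other pseudocounts, filters and scalings, voom on recovered reads, the block, and leaving out each library. Voom with the block, and the scalings, pseudocount and left-out libraries with the block, were chosen after seeing the data.

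The 8 genes and the lists were chosen with earlier results of these data known. The text names the 8 genes, the 3 genes of each list with the highest mean FPKM or some of them, and the 2 genes most like each, of which 1 is not reported here. The Tcl1b genes, Mtcp1, Lin28a, Duxf3, Tle6, Npm2, Nlrp14 and the pseudogene copies outside that rule were named after their values were seen. So were Plk1, Cdc20, Kif20a, Ccna2, Cdk1, Nusap1 and Bub1. Gcat and Lin54 had no single row under their symbol and are not reported. Copies were aligned to the longest annotated coding sequence of each gene by local alignment.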

Additional observations from a re-analysis of the deposited data

How the results depend on the processing

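None of the 8 genes was called against control in any of 645 alternative values (lowest adjusted p = 0.269), of which 582 kept the sign and 63 turned it. A replicate block added to the main fit left the sh, sd, dd and joint F tests at 0 genes. Voom with the block called 4 genes in sd, 11 in dd and 13 in the F test, and median ratio scaling with the block called 1 in sd and 1 in dd; the cause was not tested. Leaving out a library called 0 genes without the block; with it the counts were 0 to 102 in sh, 0 to 149 in sd, 0 to 167 in dd and 0 to 38 in the F test, the highest each without control replicate 1. The replicate contrast called 6992 to 8789 genes with a library left out and 5368 with a filter of 5 FPKM, where fewer genes were tested.

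Signs turned in sh for Dppa3 (0.56 with a pseudocount of 0.1, with or without the block, and 0.63 with voom), Dppa5a (-0.15 with median ratio scaling, with or without the block, -0.16 with voom and -0.044 with voom and the block) and Tdh (-0.11 with median ratio scaling and -0.021 with quantile normalization, with or without the block). With a library left out, with or without the block, log2 differences in sh ran from -1.48 to 1.33 for Dppa2, -1.69 to 1.02 for Dppa3, -0.072 to 0.46 for Dppa4, -2.30 to 2.34 for Dppa5a, -0.50 to 0.61 for Tdh, -0.70 to 1.13 for Tcl1, -0.18 to 1.44 for L1td1 and -0.74 to 1.73 for Mybl2. In sd they ran from -1.05 to 1.86 for Dppa2, -1.20 to 1.91 for Dppa3, -1.87 to 2.77 for Dppa5a, -0.51 to 1.32 for Tcl1, -0.22 to 1.41 for L1td1 and -1.05 to 1.42 for Mybl2. In dd they ran from -1.27 to 1.55 for Dppa2, -0.36 to 2.34 for Dppa3, -1.82 to 2.81 for Dppa5a, -0.76 to 1.06 for Tcl1, -0.088 to 1.54 for L1td1 and -1.46 to 1.01 for Mybl2. The sign held in each of these fits for Dppa4 (0.44 to 0.75 in sd and 0.38 to 1.06 in dd) and Tdh (0.41 to 0.82 in sd and 0.15 to 0.56 in dd). Without the block, leaving out 1 library sets unequal numbers against each other, so a gene with a wide gap between the numbers can turn sign there. In the fits with the block, the sign also held for L1td1 (0.35 to 0.91 in sh, 0.31 to 0.87 in sd and 0.45 to 1.01 in dd). It held there as well for Dppa5a in sd and dd, Dppa2 and Tcl1 in sd, and Dppa3 in dd. Every other gene and contrast turned in some fit with the block. Depth limits Dppa3 most, with 0 to 23 reads in replicate 1 libraries.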
